A study of Mus musculus with 2 samples.

Results

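Mir183, Mir96 and Mir182 are 3 neighbouring microRNA (miRNA) genes on mouse chromosome 6. They were taken by name and position, not by their values, from tables of 1973 miRNA gene identifiers, and all 3 had reads in both libraries. The tables come from small RNA sequencing (under 30 nucleotides, per the labels) of whole thymus of B6NCrl mice on postnatal day 0. Both thymus lobes of each of 2 pups of 1 litter were used, with 1 library per pup: replicate 1 is pup 2 and replicate 2 is pup 3. Both libraries are one untreated group, so the data hold no contrast between conditions. Sex was not recorded, and the labels give both pups one donor identifier, so that they are separate animals rests on the pup numbers in the sample descriptions. With 1 library per pup, a difference between animals and one between preparations cannot be told apart, and p-values measure counting error between these libraries.

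The miR-183 cluster is made as one primary transcript from which several hairpins are cut. A mature miRNA finds its targets mostly through its seed, bases 2 to 8 from the 5′ end. The cluster is best known from sensory cells such as hair cells of the inner ear, photoreceptors and olfactory neurons, and changes in the seed of miR-96 cause progressive hearing loss in humans and mice. In mouse helper T cells, miR-182 is induced by interleukin 2 signalling and represses the transcription factor Foxo1. The thymus, where T cells mature among epithelial and other stromal cells, holds both lymphoid and epithelial cells, and whole-tissue counts do not separate them.

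The sequences of the 5p arms show how the members are related, and are printed with the seed in capitals (RefSeq, build GRCm38.p6). The last line is the only other mature miRNA of the RefSeq table with the seed of miR-96-5p.
miR-183-5p: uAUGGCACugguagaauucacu
miR-96-5p: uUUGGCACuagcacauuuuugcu
miR-182-5p: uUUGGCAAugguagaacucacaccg
miR-1271-5p: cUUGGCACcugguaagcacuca

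The seeds of miR-96-5p and miR-182-5p are the same at 6 of 7 bases and differ at the last, A8C from miR-182-5p to miR-96-5p, counted from the 5′ end. The seed of miR-183-5p differs from that of miR-96-5p at 1 of 7 bases, A2U, and from that of miR-182-5p at 2, U2A and A8C from miR-182-5p to miR-183-5p. Past the seed the likeness changes partners. Aligned from the 5′ end without gaps, miR-182-5p and miR-183-5p were identical at 18 of 22 bases and shared the run ugguagaa, whereas miR-182-5p and miR-96-5p were identical at 12 of 23 bases and miR-183-5p and miR-96-5p at 13 of 22. Among 1738 mature mouse miRNAs in the RefSeq table, none shared the 7-base seed of miR-182-5p or of miR-183-5p.

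The hairpins are printed as transcribed, with both mature arms in capitals. They show which stretches can give reads, since the deposited counts are per hairpin gene and do not tell the 5p arm from the 3p arm.
Mir183: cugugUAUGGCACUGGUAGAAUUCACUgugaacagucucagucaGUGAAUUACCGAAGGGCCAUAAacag
Mir96: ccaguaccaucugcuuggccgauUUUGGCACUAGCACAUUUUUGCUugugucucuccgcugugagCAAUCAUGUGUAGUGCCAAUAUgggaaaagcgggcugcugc
Mir182: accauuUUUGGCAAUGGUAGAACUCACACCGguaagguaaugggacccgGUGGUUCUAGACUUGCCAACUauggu

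All 3 genes lie on the minus strand of build GRCm38 (mm10) and overlap no other gene of GENCODE M21. Mir183 (ENSMUSG00000065619.2, chr6:30169668-30169737) is transcribed first, Mir96 (ENSMUSG00000065586.1, chr6:30169446-30169551) starts 116 bases after its end, and Mir182 (ENSMUSG00000076361.1, chr6:30165918-30165992) follows after a gap of 3453 bases. The nearest annotated gene upstream is Rncr4, a long noncoding RNA gene on the plus strand 3155 bases away. The nearest on the other side is the protein-coding gene Nrf1 on the plus strand, 12459 bases away. No run of 20 bases of any of the 3 hairpins occurred, on either strand, in another gene's transcript of GENCODE M21. This bears on the counts because reads that mapped to several places, 56.3% of all reads in replicate 1 and 57.5% in replicate 2, were tallied apart from the genes by the authors.

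Mir182 had the most reads of the members, at about 3 times the level of the others. Levels of different miRNAs are compared here by reads, and how reads relate to molecules was not measured. It had 11493 reads in replicate 1 and 4978 in replicate 2 on the strand of the gene, of 2734133 and 1289151 such reads on all miRNA genes. That is 4204 counts per 1000000 gene-strand counts (CPM) in replicate 1 (95% exact Clopper-Pearson interval 4127 to 4281) and 3861 CPM in replicate 2 (3755 to 3970.0), a mean of 4032 ± 242 CPM (SD, n = 2). Intervals cover counting error only, since the labels describe no molecular identifiers.

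Mir183 had 3934 reads in replicate 1 and 1923 in replicate 2, or 1439 CPM (1394 to 1485) and 1492 CPM (1425.8 to 1559.8), a mean of 1465 ± 37.4 CPM. Mir96 had 3470 reads in replicate 1 and 1744 in replicate 2, or 1269 CPM (1227 to 1312) and 1353 CPM (1290.1 to 1418), a mean of 1311 ± 59.2 CPM. The values of Mir182 lay above all values of Mir183 and Mir96 in both libraries, and those of Mir183 lay above those of Mir96 by a small margin. In whole tissue, fewer cells that make a miRNA and less of it per cell cannot be told apart.

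**Figure D1:**
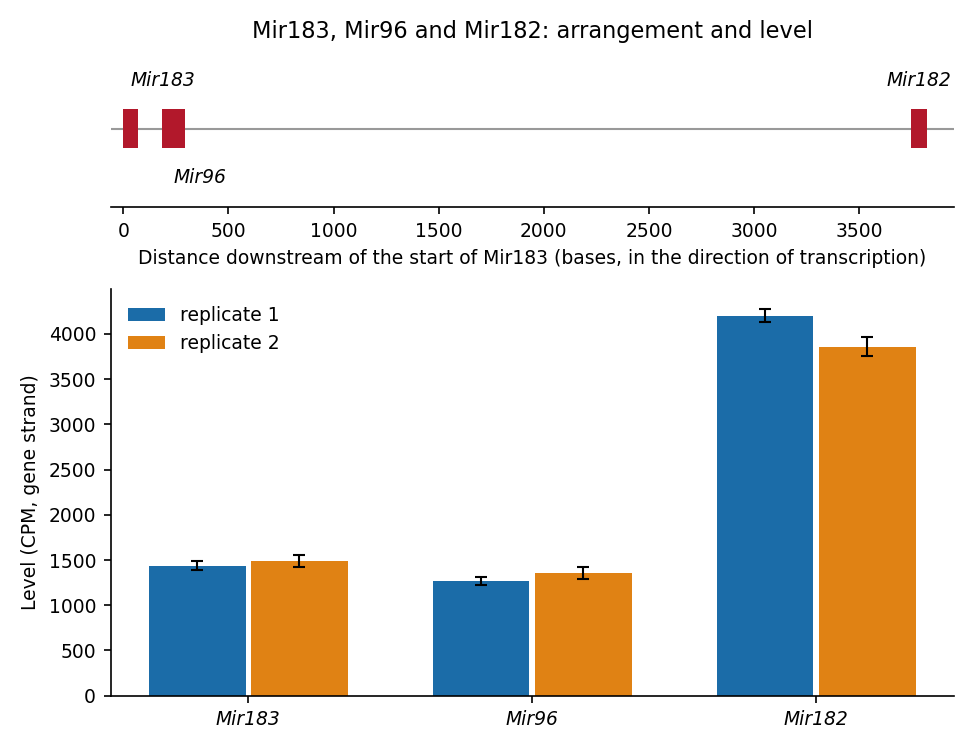
The upper panel draws the 3 genes to scale by distance in bases from the start of Mir183 in the direction of transcription, and the lower panel gives the level of each in CPM on the gene strand, with bars for replicate 1 (left) and replicate 2 (right) and 95% exact counting intervals. Mir183 and Mir96 sit between 1269 and 1492 CPM, and Mir182, 3453 bases further on, at 4204 and 3861 CPM.

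Together the 3 genes took 0.691% of gene-strand counts in replicate 1 (0.681 to 0.701) and 0.671% in replicate 2 (0.657 to 0.685), a mean of 0.681% ± 0.0145. Mir182 supplied 60.8% of the cluster's reads in replicate 1 and 57.6% in replicate 2, Mir183 supplied 20.8% and 22.2%, and Mir96 supplied 18.4% and 20.2%. Reads lay almost wholly on the gene strand. The opposite strand held 5 reads in replicate 1 (0.0265% of the cluster's reads, 0.00859 to 0.0617) and 4 reads in replicate 2 (0.0462%, 0.0126 to 0.118), against 14.6% and 14.3% over all miRNA genes.

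Within a library, Mir182 exceeded Mir96 by 3.31 times in replicate 1 (exact 95% interval 3.19 to 3.44) and by 2.85 times in replicate 2 (2.70 to 3.02), a mean of 3.08 ± 0.324. It exceeded Mir183 by 2.92 times in replicate 1 (2.82 to 3.03) and by 2.59 times in replicate 2 (2.46 to 2.73), a mean of 2.76 ± 0.235. Mir183 exceeded Mir96 by 1.13 times in replicate 1 (1.08 to 1.19) and by 1.10 times in replicate 2 (1.03 to 1.18), a mean of 1.12 ± 0.0220. The order of reads, Mir182, Mir183, Mir96, was the same in both libraries, and each interval, for counting error only, excluded equal counts. Differences between members were not tested across pups. Per base of annotated gene (75 bases for Mir182, 70 for Mir183 and 106 for Mir96) the order held, with ratios of 4.36 for Mir182 to Mir96, 2.57 for Mir182 to Mir183 and 1.69 for Mir183 to Mir96, although a read of this size class spans a mature miRNA and not the gene.

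Counts within the cluster were more even than in most clusters of the tables. Clusters were runs of annotated miRNA genes on one strand with at most 10000 bases between neighbours and at least 2 detected genes, where detected means at least 10 reads in both libraries. The highest member exceeded the lowest by a median of 12.4 times over 43 clusters, and 9 of them had a smaller ratio than the 3.08 of Mir182 to Mir96. Among the 5 clusters with 3 detected genes, 1 was more even: Mir292, Mir293 and Mir294, at 1.63 times. The epithelial cluster of Mir200b, Mir200a and Mir429 had 8.84 times between its highest and lowest gene. Mir23a, Mir27a and Mir24-2 had 51.9 times, and Mir25, Mir93 and Mir106b had 9.81 times. Among clusters of 2 detected genes from the lists below, Mir181c and Mir181d had 1.76 times and Mir200c and Mir141 had 3.99 times. Ratios were larger for Mir34c and Mir34b (23.5), Mir181a-2 and Mir181b-2 (58.1), Mir181a-1 and Mir181b-1 (352), and Mir449a and Mir449c (443). These ratios are descriptions with no test. The median was 129 times over the 12 clusters with 3 or more detected genes, of which only that of Mir292 was more even. Those clusters hold up to 28 detected genes, and a highest-over-lowest ratio cannot shrink as genes are added. Over the 5 clusters with 3 detected genes the median was 8.84 times. Mir292, Mir293 and Mir294 averaged only 11.3, 16.9 and 18.2 CPM, near the filter for detection. All 3 genes of the Mir23a cluster, 1 of the Mir292 cluster and the named Mir181a and Mir181b genes share 20 bases with another miRNA gene. Without genes that share 20 bases with another miRNA gene (a setting added once the values were known), 4 of 23 clusters were more even.

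**Figure D2:**
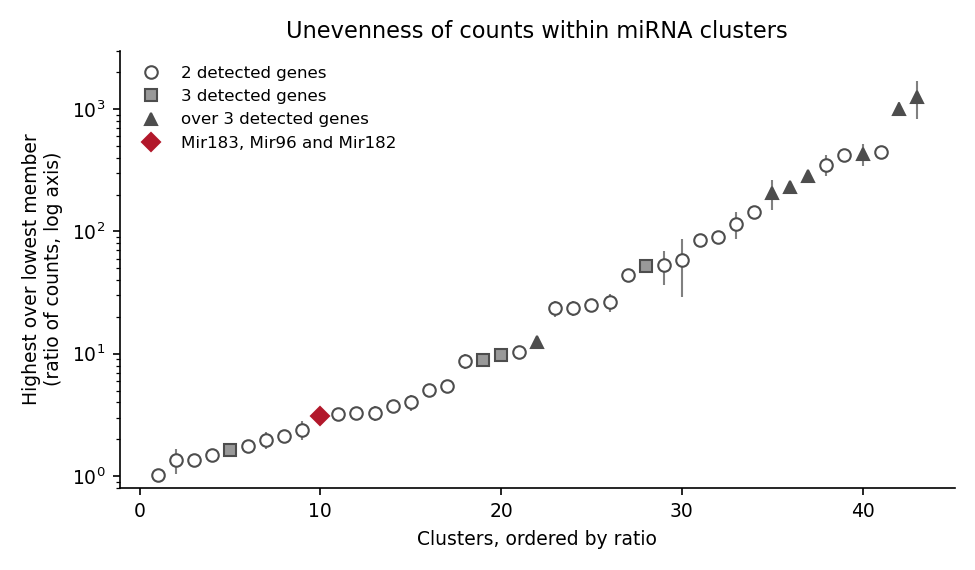
Each point is a miRNA cluster, ordered along the x axis by the ratio of its highest to its lowest detected gene (y axis, ratio of counts, log scale), with a line joining the values of both libraries. The cluster of Mir183, Mir96 and Mir182 stands at 3.08, with 9 of the 43 clusters below it.

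By mean level, Mir182 ranked 48 and Mir183 and Mir96 ranked 85 and 88 among all genes, above 83.7%, 71.1% and 70.1% of the 294 detected genes. Levels next to them in this order overlapped theirs. Mir128-2, just above Mir182, had 4793 CPM in replicate 1 and 3983 CPM in replicate 2, and Mir98, just below, had 3870 CPM in replicate 1 and 3567 CPM in replicate 2. Mir708, just above Mir183, had 1487 CPM in replicate 1 and 1523 CPM in replicate 2.

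The genes closest in level over both libraries were found by the Euclidean distance in log2 CPM over the 2 libraries. For Mir182 they were Mir98 (distance 0.17), Mir128-2 (0.19) and Mir101b (0.20). For Mir183 they were Mir708 (0.056), Mir872 (0.16) and Mir148a (0.21), and for Mir96 they were Mir27a (0.10), Mir872 (0.18) and Mir379 (0.20). With 2 libraries of one group this measures likeness of level and little else.

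**Figure D3:**
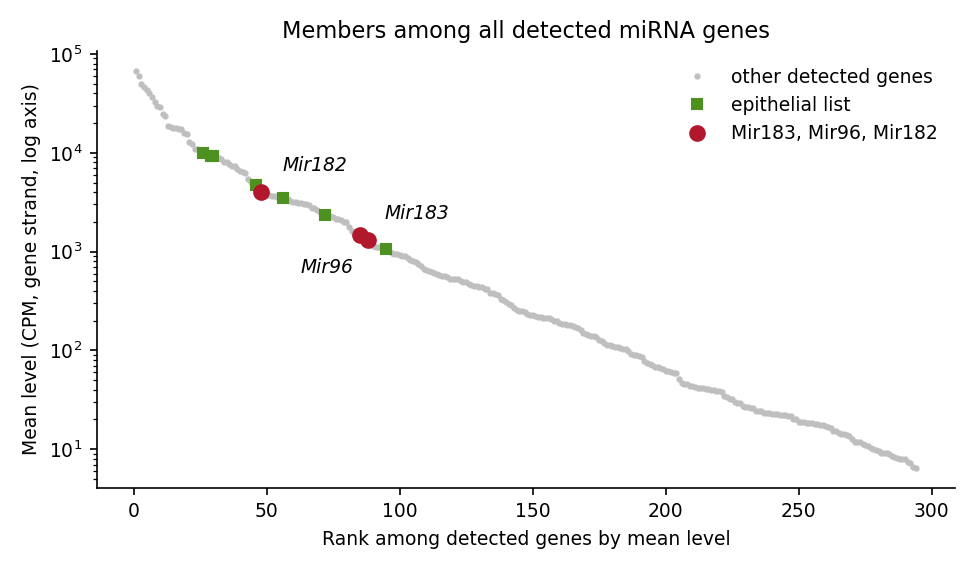
Each point is one of the 294 detected genes, with its rank by mean level on the x axis and its mean level in CPM on a log y axis. Mir182 at rank 48 and Mir183 and Mir96 at ranks 85 and 88 (circles) lie within the span of the epithelial genes (squares), from 9875 to 1056 CPM.

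The mature sequence that shares the seed of miR-96-5p had no reads. Its gene is Gm24195 (ENSMUSG00000080454.2, plus strand of chromosome 13, 54578113 to 54578249), which had 0 gene-strand and 0 opposite-strand reads in both libraries. A count of 0 allows up to 3 reads, or 1.10 CPM in replicate 1 and 2.33 CPM in replicate 2. Mir3475, whose 5p arm shares the seed of miR-96-3p, had 5 reads in replicate 1 and 0 in replicate 2.

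Set beside miRNAs of the cell types in which the cluster is known, the 3 genes summed to less than the epithelial genes and to nearly as much as the sensory, neural and endocrine genes. The 7 genes of the epithelial list, which hold the miR-200 family that maintains epithelial identity and Mir205 and Mir203 of stratified epithelium, were all detected and summed to 40141 ± 696 CPM. The summed cluster came to 0.174 of that in replicate 1 and 0.165 in replicate 2. Mir203 at 3526 ± 167 CPM and Mir141 at 2341 ± 94.7 CPM lay between Mir183 and Mir182 in both libraries, and Mir200b averaged 4705 ± 780 CPM. Mir200a at 1056 ± 59.2 CPM lay below all 3 members in both libraries, whereas Mir205, Mir429 and Mir200c averaged 9875 ± 749, 9335 ± 730 and 9304 ± 1550 CPM.

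The sensory, neural and endocrine list had 6 of its 12 counted genes detected, and the cluster came to 0.962 of its summed level in replicate 1 and 0.964 in replicate 2. Nearly all of that sum was Mir375, a miRNA of endocrine cells, at 6561 ± 165 CPM, and Mir182 had 0.614 ± 0.0214 of the level of Mir375. Mir204 and Mir211, which are abundant in the pigment epithelium of the eye, had 107 ± 4.44 and 45.4 ± 1.62 CPM. The other detected genes of the list were Mir7-1 at 259 ± 11.4 CPM, Mir137 at 71.4 ± 18.7 CPM and Mir7b at 22.2 ± 7.33 CPM. The neuronal genes Mir124a-1, Mir124a-2, Mir124a-3 and Mir9-2 had 0 reads in both libraries and Mir9-3 had 1 read in each, but all of them share 20 bases with another miRNA gene, so their reads may be among those that mapped to several places.

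The ciliated cell list, Mir34 and Mir449 genes that act in the formation of multiple cilia, summed to 4925 ± 119 CPM with 5 of 6 genes detected, and the cluster came to 1.38 ± 0.00392 times that sum. Mir449a had 3574 ± 83.9 CPM and its neighbour Mir449c 8.08 ± 0.463 CPM, a ratio of 443 ± 15.0 in a cluster far less even than that of Mir183.

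The T lineage and lymphocyte list summed to 68925 ± 4088 CPM, and the cluster came to 0.0962 of that sum in replicate 1 and 0.102 in replicate 2. Most of it was Mir181a-1, which raises T cell receptor sensitivity, at 36631 ± 832 CPM. Mir182 was close in level to Mir155, a miRNA of activated lymphocytes, at 3513 ± 394 CPM (ratio of Mir182 to Mir155 of 1.11 in replicate 1 and 1.19 in replicate 2). It was above Mir150, a miRNA of mature lymphocytes, at 2093 ± 339 CPM. Of the 10 listed genes, Mir142 was not among the counted genes, so any reads of it are missing from this sum and these ratios. The 4 genes Mir181a-1, Mir181a-2, Mir181b-1 and Mir181b-2 share sequence with other loci.

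**Figure D4:**
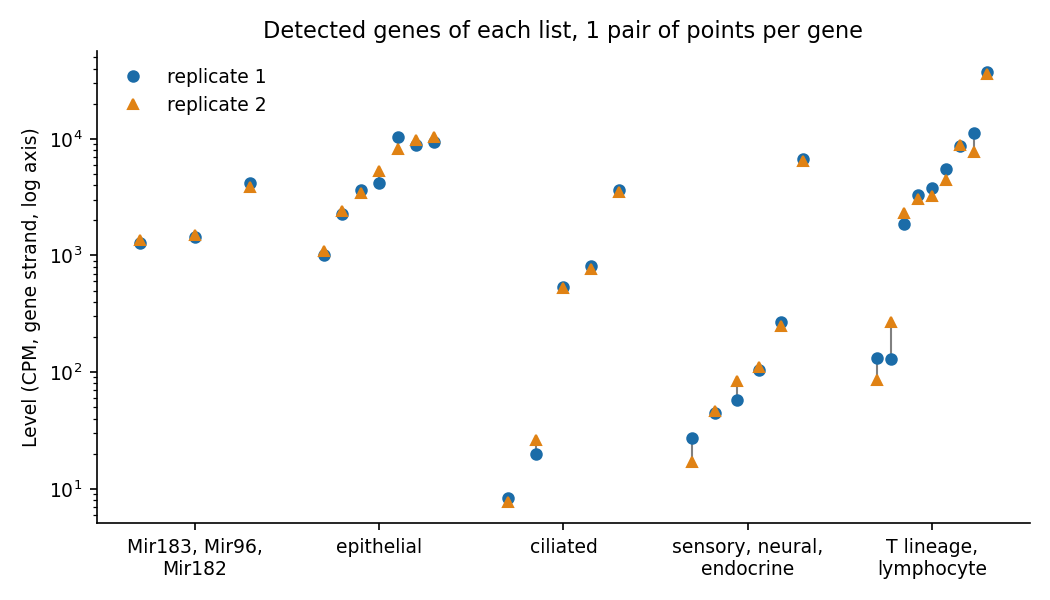
Levels in CPM (log axis) of the detected genes of each list, with a circle for replicate 1 and a triangle for replicate 2 joined by a line. Mir96, Mir183 and Mir182 (left, from 1269 to 4204 CPM) overlap epithelial genes, Mir449a of the ciliated list, and the lymphocyte genes Mir155, Mir342 and Mir150. Genes of the T lineage and lymphocyte list (right) lie on both sides. They reach from 37220 and 36043 CPM for Mir181a-1 to 132 and 85.3 CPM for Mir181b-1.

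Between the littermates, Mir183 and Mir96 were close to equal and Mir182 was slightly higher in replicate 1. Ratios are replicate 1 over replicate 2, scaled by TMM, and each gene was tested on its reads with an exact two-sided binomial test and Benjamini-Hochberg adjustment over 294 detected genes. Mir182 had a log2 ratio of 0.19 (exact 95% interval 0.14 to 0.24, adjusted p = 4.32e-14), or 1.14 times. Mir183 had a log2 ratio of 0.014 (-0.06 to 0.09, adjusted p = 0.830 by the exact test) and Mir96 a log2 ratio of -0.026 (-0.11 to 0.06, adjusted p = 0.680 by the exact test).

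The test called 1 of the 3 members and 128 of 294 detected genes, 43.5%. It compares 2 libraries and not conditions. The absolute log2 ratio of Mir182 was below the median of 0.21 over detected genes, and 53.1% of detected genes had a larger one. For Mir183 and Mir96, 95.2% and 92.5% of detected genes had a larger one. Detected genes include those with far fewer reads than the members, where counting error alone widens the ratio. With edgeR's negative binomial exact test, which adds the spread between these libraries (coefficient of variation 0.154), Mir182 was not called (adjusted p = 1, against 2.05e-16 to 2.07e-06 under the other alternatives) and 1 gene, Mir208b, was called, with 15 genes at an unadjusted p under 0.05. That spread was estimated from the same 2 libraries that the test compared. The tested differences are part of it, so few genes could be called, and the lost call cannot tell whether Mir182 differed.

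**Figure D5:**
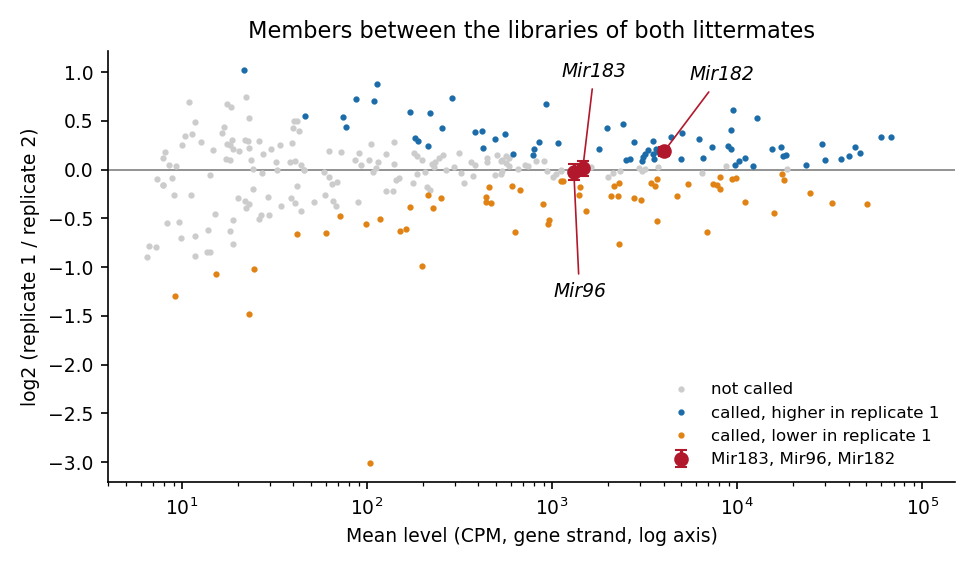
Each point is a detected gene, with its mean level in CPM on a log x axis and the log2 ratio of replicate 1 over replicate 2 on the y axis, coloured by the exact binomial call. The members (large circles with exact 95% intervals) lie at 0.19 (Mir182), 0.014 (Mir183) and -0.026 (Mir96), within the band of other genes of their level.

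The makeup of the cluster differed slightly between the libraries of the pups. Fisher's exact test on reads holds counting error only and no spread between preparations. The ratio of Mir182 to Mir96, 3.31 in replicate 1 and 2.85 in replicate 2, differed by 0.21 on the log2 scale (two-sided Fisher's exact test, adjusted p = 0.000129). The ratio of Mir182 to Mir183, 2.92 in replicate 1 and 2.59 in replicate 2, differed by 0.17 (adjusted p = 0.00188 by Fisher's exact test). That of Mir183 to Mir96 differed by 0.040 (adjusted p = 0.712 by Fisher's exact test). P-values were adjusted over all 566 pairs of detected genes of one cluster, of which 18.7% passed, and the median absolute difference over these pairs was 0.32. The 2 ratios that passed share the counts of Mir182. All 3 differences were below that median. Most of the pairs come from 1 cluster of 28 detected genes, Mir379 to Mir3072, many of which have far fewer reads than the members. Counting error alone widens such differences, so the median and the share passed are not matched to the members in depth. The log2 ratios of the 3 members spanned 0.21, and 2 of the 12 clusters with 3 or more detected genes had a smaller span (median 0.50).

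Markers of other cells and the summed lists differed between the libraries of the pups by unequal amounts. Mir143, a miRNA of smooth muscle and mesenchymal cells, had 42989 CPM in replicate 1 and 57301 CPM in replicate 2. The other mesenchymal marker, Mir145a, had 1901 CPM in replicate 1 and 2100 CPM in replicate 2. Mir126a, of endothelial cells, which shares 20 bases with another miRNA gene, had 28049 CPM in replicate 1 and 37298 CPM in replicate 2. Mir223, of myeloid cells, had 919 CPM in replicate 1 and 787 CPM in replicate 2. Of the erythroid markers, Mir451a had 144 and 82.2 CPM and Mir144 had 87.0 and 85.3 CPM. Of the striated muscle markers, Mir208b had 21.9 and 185 CPM, Mir206 had 445 and 442 CPM, and Mir1a-1 had 0 reads. Mir451a and Mir1a-1 also share 20 bases with another miRNA gene. The epithelial list summed to 39648 CPM in replicate 1 and 40633 CPM in replicate 2, and the T lineage and lymphocyte list to 71816 and 66035 CPM. Genes within each list went both ways, though not evenly. By the exact binomial test, 6 of the 9 detected T lineage and lymphocyte genes were called higher in replicate 1 and 2 lower. Of the 7 epithelial genes, 2 were called higher and 3 lower, against 69 and 59 of all 294 detected genes. Mir200c had 10400 CPM in replicate 1 and 8208.5 in replicate 2, and Mir200b had 4153 and 5256 CPM. Mir155 had 3792 and 3235 CPM, and Mir150 had 1853 and 2332.5 CPM. The part of these markers and lists in the difference of Mir182 was not tested.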

How the data were processed

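Read counts per miRNA gene were deposited by the authors as 1 table per library, mapped to mm10 and counted over GENCODE M4, per the deposited text files. Aligner and counter were not given in the sources used here. The deposited count columns have no names. In all 1973 genes the first is the sum of the others, and the column with the larger total was taken as the gene strand. Reads outside the genes (unmapped, multimapping or without a feature) stayed out of library sizes.

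Symbols and coordinates came from GENCODE M21, which matched 1894 of 1973 identifiers and is a later release than M4. All 3 members matched, and all 3 were found in the RefSeq sequence table. CPM used the gene-strand total, 2734133 and 1289151 counts. A gene was called detected, and tested, from 10 counts upward in each library. TMM scaling used edgeR 4.0.16 (R 4.3.3). Binomial and Fisher's exact tests and Clopper-Pearson intervals used scipy 1.17.1 (Python 3.11.15) at an adjusted threshold of 0.05. Simulated counts were used to check the binomial test. A group of one kind leaves edgeR's quasi-likelihood test no term to test. Fisher p-values were planned over the 3 member pairs and were adjusted over all 566 pairs instead, so that the adjustment did not rest on the members alone.

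Members, gene lists and comparisons were chosen with earlier results of these data known. Named genes are the members, the 3 closest in level to each, the fixed lists, genes that share a seed, and their clusters. Clusters with 3 detected genes, Mir708, Mir143 and Mir126a as examples were chosen after their values were seen. Alternatives were unstranded counts, other library sizes (DESeq2 1.42.0 size factors, total counts, without the most abundant gene), filters of 1 and 100 counts, a negative binomial test, other cluster distances, and each library alone. Ratios per base of gene and clusters without genes of shared sequence were added after the data were seen.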

Additional observations from a re-analysis of the deposited data

Results flagged for a closer look

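Mir183 had 4 reads on the opposite strand in replicate 1, and 1 in replicate 2. This strand is outside the main measurement, and 4 is above the 3 reads that a count of 0 allows. It compares with 3934 reads on the gene strand in the same library.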

How the results depend on the processing

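With unstranded counts over their own total, the mean levels were 3450 CPM for Mir182, 1254 CPM for Mir183 and 1121 CPM for Mir96, and the cluster's share was 0.583%. Without the most abundant gene in the total they were 4327, 1572 and 1406 CPM, and 0.731%. Both follow from the changed total. TMM library sizes moved levels and share by less than 1 SD, as did summed counts and unstranded counts the member ratios. With 2 libraries, each library alone lies at a fixed fraction of the SD from the mean and says nothing about stability. Per base of gene, a setting added after seeing the data, the ratios were 4.36 for Mir182 to Mir96 and 1.69 for Mir183 to Mir96.

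The log2 ratio of Mir182 between the libraries kept its direction and its call under 5 of 6 alternatives (0.12 to 0.21), and lost the call in edgeR's negative binomial test at 0.19 (adjusted p = 1), where 1 gene in all was called. The spread in that test came from the same 2 libraries, so few genes could be called and the lost call decides nothing. The uncalled log2 ratio of Mir183 turned to -0.052 with total counts, -0.016 with DESeq2 size factors and -0.019 with at least 100 counts. Total counts split the called genes into 52 higher and 72 lower in replicate 1, against 69 and 59 with TMM. The median ratio within clusters was 6.90 with at most 1000 bases between neighbours, 17.9 with at most 50000, 23.5 with at least 1 count, and 10.4 without genes of shared sequence (also added after seeing the data). Clusters more even than that of the members numbered 1 at 1000 bases, where Mir182 drops out and Mir183 and Mir96 differ by 1.12 times, and 4 without genes of shared sequence.

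No paired analysis was possible because both libraries belong to one group. With 2 libraries, an SD rests on a single difference, and depth limits rare reads, as 3 reads equal 1.10 CPM in replicate 1 and 2.33 CPM in replicate 2.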
